A study of Mus musculus with 12 samples.

Results

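The CXC chemokine ligands comprised 9 genes, namely Cxcl1, Cxcl2, Cxcl3, Cxcl9, Cxcl10, Cxcl14, Cxcl16, Ppbp, and Pf4, taken by symbol from the 35303 symbols of the count table. All 9 were among the 17676 symbols that had at least 2 counts over the 12 libraries and were tested. The study examined how carrying nanoparticles (NPs) changes gene expression in myeloid-derived suppressor cells (MDSCs), immunosuppressive myeloid cells that were grown here from the bone marrow of wild-type female C57BL/6 mice with IL-6 and GM-CSF and purified as CD11b+Gr1+ cells, a mixture of granulocytic and monocytic cells. Bulk RNA-seq was made from 3 groups of 4 biological replicates each. MDSC are unmodified cells, MDSC-NP-Blk are cells conjugated through azide and DBCO click chemistry with blank PLGA NPs, and CITED are cells conjugated in the same way with PLGA NPs that carry rapamycin, an inhibitor of mTORC1. All groups were kept in medium with IL-6 before RNA was taken. Whether the unmodified cells received the azido sugar or a mock incubation is not stated in the sources used here, so that the blank NPs, the sugar, and the handling cannot be told apart in MDSC-NP-Blk against MDSC. In bulk RNA, more cells of a type and more RNA per cell cannot be told apart either.

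Chemokines are small secreted proteins that direct the migration of leukocytes, and the CXC family is named for a pair of cysteines separated by a single residue. Members with the residues glutamate, leucine, and arginine just before this pair (ELR+ ligands, here Cxcl1, Cxcl2, Cxcl3, and Ppbp) act through Cxcr2 and attract neutrophils and related granulocytic cells. Cxcl9 and Cxcl10 are ligands of Cxcr3 that are induced by interferons and attract activated T cells, Pf4 and Ppbp are stored in platelet granules, Cxcl14 is expressed mainly in epithelia, and Cxcl16 is made as a membrane-bound ligand of Cxcr6 that proteases can shed.

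Within the CXC ligand genes, the codons that precede the first cysteine of the CXC pair separate ELR+ members from the rest. They are shown because the results describe the ELR+ ligands first. In the comparisons with MDSC, the fold changes did not separate along this division. In CITED against MDSC-NP-Blk, the log2 fold changes of ELR+ members were 1.05 (Cxcl3), 0.80 (Ppbp), 0.61 (Cxcl1), and 0.37 (Cxcl2). Those of the others were 0.38 (Cxcl14), 0.27 (Pf4), 0.10 (Cxcl16), and -0.05 (Cxcl10), Cxcl9 being too scarce. Only Cxcl14 lay above an ELR+ member there, and the division was not tested. Each line gives 36 coding bases from the GENCODE transcripts of GRCm39, with the 3 codons before the first cysteine in capitals.
Cxcl1: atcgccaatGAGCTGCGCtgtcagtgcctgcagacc
Cxcl2: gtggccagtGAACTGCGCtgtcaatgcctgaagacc
Cxcl3: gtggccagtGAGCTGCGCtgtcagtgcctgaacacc
Ppbp: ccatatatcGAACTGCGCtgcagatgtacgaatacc
Pf4: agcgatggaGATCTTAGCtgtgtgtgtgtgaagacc
Cxcl9: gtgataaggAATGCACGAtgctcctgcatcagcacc
Cxcl10: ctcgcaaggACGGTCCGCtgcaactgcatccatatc
Cxcl14: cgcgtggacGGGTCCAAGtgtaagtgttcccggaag
Cxcl1, Cxcl2, Cxcl3, and Ppbp carry codons for the ELR residues at this place, and the remaining 4 do not. Of the 31-base words of the canonical Cxcl2 transcript, 7.40% also occur in transcripts of Cxcl3. For the canonical Cxcl3 transcript, 8.11% occur in transcripts of Cxcl2. The share found in transcripts of any other gene is 1.4% for Cxcl9 and 0 for the remaining members.

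Of the 9 genes, 7 lie on chromosome 5 (GRCm39). Ppbp (chr5:90916371-90917930), Pf4 (chr5:90918479-90922110), Cxcl3 (chr5:90933962-90937459), Cxcl1 (chr5:91039094-91040974), and Cxcl2 (chr5:91051730-91053797) form a cluster on the plus strand. Ppbp and Pf4 are separated by 0.549 kb, Pf4 and Cxcl3 by 11.8 kb, Cxcl3 and Cxcl1 by 101.6 kb, and Cxcl1 and Cxcl2 by 10.8 kb. Cxcl9 (chr5:92469206-92475945) and Cxcl10 (chr5:92494497-92496748) are a minus-strand pair 1415.4 kb further on, 18.6 kb apart. Cxcl14 (chr13:56436352-56444603) and Cxcl16 (chr11:70344517-70352620), both on the minus strand, lie on other chromosomes.

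Proximal promoters are shown to describe which members hold matches to an NF-kB motif, and a relation to the fold changes was not tested. RefSeq promoter sequences (GRCm38.p6, 250 bases before to 50 bases after the start site) were matched by symbol for 8 of the 9 members, not for Cxcl16. They were searched for an NF-kB motif, GGGNNNTTCC on both strands, an interferon response element, TTTCNNTTTC on both strands, and TATAAA on the sense strand, which occur in 5.56%, 3.44%, and 8.32%, respectively, of 32851 promoters of the same length. The lines give 130 bases on the strand of the gene, ending just before the start site or, for Cxcl10, 91 bases before it, with matches in capitals. They are chr5:90891115-90891244 for Cxcl1, chr5:90903769-90903898 for Cxcl2, chr5:90785971-90786100 for Cxcl3, chr5:92348980-92349109 on the minus strand for Cxcl10, chr5:90768388-90768517 for Ppbp, and chr5:90772305-90772434 for Pf4.
Cxcl1: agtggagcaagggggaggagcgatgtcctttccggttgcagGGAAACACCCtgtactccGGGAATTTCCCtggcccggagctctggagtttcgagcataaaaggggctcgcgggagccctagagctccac
Cxcl2: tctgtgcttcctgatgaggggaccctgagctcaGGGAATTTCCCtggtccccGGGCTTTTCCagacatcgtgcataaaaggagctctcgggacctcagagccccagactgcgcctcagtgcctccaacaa
Cxcl3: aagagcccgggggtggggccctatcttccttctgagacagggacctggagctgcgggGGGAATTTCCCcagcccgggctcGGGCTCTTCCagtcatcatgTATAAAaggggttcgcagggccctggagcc
Cxcl10: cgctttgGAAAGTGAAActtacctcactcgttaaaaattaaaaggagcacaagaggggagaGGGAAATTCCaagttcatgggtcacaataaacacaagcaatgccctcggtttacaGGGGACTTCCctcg
Ppbp: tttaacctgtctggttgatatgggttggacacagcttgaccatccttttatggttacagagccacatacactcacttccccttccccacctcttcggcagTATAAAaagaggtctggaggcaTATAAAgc
Pf4: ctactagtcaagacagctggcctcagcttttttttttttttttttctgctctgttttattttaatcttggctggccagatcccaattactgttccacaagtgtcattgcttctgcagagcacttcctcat
Cxcl1, Cxcl2, and Cxcl3 share the run GGGAATTTCC, which begins 71, 97, and 73 bases before the start site, respectively, and is matched on both strands 1 base apart. Cxcl1 holds an additional minus-strand match 89 bases before the start, Cxcl2 an additional match at 78 bases, and Cxcl3 one at 50 bases and TATAAA at 30 bases. Cxcl10 holds NF-kB matches at 159 and 104 bases and an interferon response element at 213 bases before the start. Cxcl14, whose stretch is not printed, holds an interferon response element match at 172 bases and no NF-kB match. Its log2 fold changes were 2.10 in CITED and 1.73 in MDSC-NP-Blk, each against MDSC. Those of Cxcl2, which holds NF-kB matches, were 1.66 and 1.29. Ppbp holds TATAAA at 30 and 8 bases before the start and Cxcl9 at 195 bases, and none of the motifs was found in the Pf4 window. A match is a description of letters and not of a bound factor.

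Each library held between 20604809 and 37855478 counts, so that 3 counts, used as the floor below which no level is read, were between 7.92e-06% and 1.46e-05% of a library (counting error only). The TMM factors that scale library sizes were between 1.12 and 1.15 in MDSC, 0.938 and 0.947 with blank NPs, and 0.921 and 0.944 in CITED. The MDSC-NP-Blk libraries fell into 2 pairs, 2 with 3 and 1 with 4. Counts of libraries from the 2 pairs differed by 15.7 to 21.8 times the sampling noise (chi-square over its degrees of freedom), as against 5.69 and 5.91 within the pairs. The rank correlation between transcript length and a gene's level relative to its mean over all libraries, a description over 10543 genes, was 0.218 to 0.346 in MDSC, -0.341 to -0.187 in CITED, and -0.422, -0.0474, 0.0920, and -0.243 in MDSC-NP-Blk 1 to 4. No replicates agreed within sampling noise. MDSC markers were detected in all groups, including S100a9 (282835 normalized counts in MDSC), Itgam (51965), and Ly6g (3934), whereas a tissue field in the labels names the CNS.

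Levels are given as normalized counts, that is, scaled by library size and TMM factor to a library of mean size. Differences are log2 fold changes from edgeR's quasi-likelihood test with SEs and Benjamini-Hochberg adjusted p-values over all genes tested. A gene was called where the adjusted p was below 0.05 and the log2 fold change was at least 1 in size, which are the thresholds of the study. In CITED against MDSC, 7 of 9 members were called higher, compared with 3.28% of all genes tested, and 0 were called lower, compared with 6.70%. By adjusted p alone, 8 of 9 members were higher, as were 22.2% of all genes, and 0 were lower, as were 22.2%. In MDSC-NP-Blk against MDSC, 6 members were called higher (1.88% of all genes) and 0 lower (2.86%), and 8 passed the adjusted p alone in the higher direction (19.9%) and 0 in the lower (18.6%). In CITED against MDSC-NP-Blk, 1 member, Cxcl3, was called higher (0.651%) and 0 lower (2.00%), and 4 were higher by adjusted p alone (10.5%) and 0 lower (11.4%). At an unadjusted p below 0.05, edgeR's test found 0 members lower in the 3 comparisons, and DESeq2 called 0 lower. The median log2 fold change of the members was 1.66, 1.29, and 0.37 in the 3 comparisons in this order, beside -0.05, -0.03, and 0.00 over all genes tested. Without Cxcl9, which lay at or under the floor throughout, the medians of the members were 1.73, 1.51, and 0.37. These comparisons share groups of libraries with each other. The members were chosen with earlier results of these data known, so that their numbers beside the shares of all genes are a description and not a test. The genes tested also include scarce ones that can hardly be called, as 10556 of the 17676 had a mean above 50 normalized counts.

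**Figure D1:**
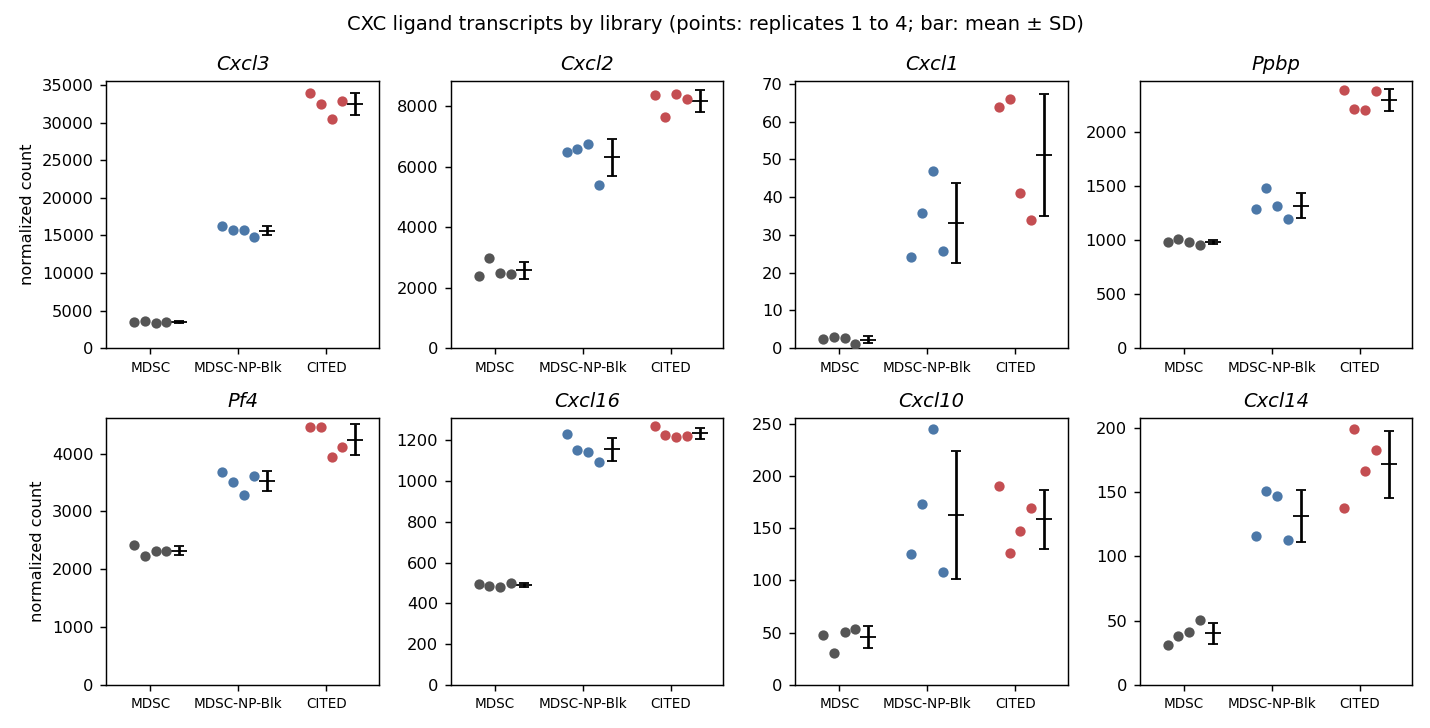
Normalized counts (vertical axes, each from 0) of 8 CXC ligands in the 12 libraries, with points for replicates 1 to 4 of MDSC (grey), MDSC-NP-Blk (blue), and CITED (red) and a bar for the mean ± SD. Cxcl9, at or under the floor in all libraries, is left out. Every point of MDSC-NP-Blk and CITED lies above every point of MDSC, and the points of CITED and MDSC-NP-Blk overlap for Cxcl1, Cxcl10, Cxcl14, and Cxcl16. The share of all genes tested whose groups separate in this way was not determined.

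Among the ELR+ ligands, Cxcl3, a neutrophil attractant, was the most abundant member and rose in both steps, from MDSC to MDSC-NP-Blk and again to CITED. Its normalized counts were 3529, 3594, 3322, and 3445 in MDSC 1 to 4, 16232, 15774, 15701, and 14814.5 in MDSC-NP-Blk 1 to 4, and 34001, 32479, 30439, and 32871 in CITED 1 to 4. The 3 groups did not overlap, and the spread within a group was small (CV of 3.38%, 3.79%, and 4.58%). Here and for the ligands that follow, the lack of overlap is a description, as its share among all genes tested was not determined. Cxcl3 was up-regulated 9.34-fold in CITED against MDSC (log2 fold change of 3.22, SE 0.0498, adjusted p = 5.9e-32) and 4.50-fold in MDSC-NP-Blk against MDSC (2.17, SE 0.0479, adjusted p = 3.2e-27). It was the only member called in CITED against MDSC-NP-Blk, at 2.08-fold (1.05, SE 0.0459, adjusted p = 1.4e-18), a value close to the threshold whose 95% interval of 1.96 SEs ran from 0.96 to 1.14.

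Cxcl2, which signals through the same receptor, rose in the same order by smaller amounts. Normalized counts were 2380.5, 2995, 2469, and 2456 in MDSC 1 to 4, 6496, 6585, 6751, and 5391 in MDSC-NP-Blk 1 to 4, and 8356, 7624, 8398, and 8249 in CITED 1 to 4. MDSC 2 was the highest library of its group and MDSC-NP-Blk 4 the lowest of its own, and the groups did not overlap. Cxcl2 was up-regulated in CITED against MDSC (log2 fold change of 1.66, SE 0.0664, adjusted p = 1.1e-20) and in MDSC-NP-Blk against MDSC (1.29, SE 0.0659, adjusted p = 2.5e-17). In CITED against MDSC-NP-Blk it was higher by 0.37 (SE 0.0642, adjusted p = 3e-05), which passed the adjusted p and not the fold threshold.

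Cxcl1 (KC in the older literature, a neutrophil attractant of many tissues) was close to absent in unmodified cells, with 3, 3, 3, and 1 counts in MDSC 1 to 4, all at or under the floor. In the NP groups, normalized counts were 24.2, 35.9, 46.9, and 25.7 in MDSC-NP-Blk 1 to 4 and 63.96, 66.0, 41.1, and 33.9 in CITED 1 to 4. MDSC-NP-Blk 2 and 3, which paired with each other above, were the higher ones of their group. Both NP groups lay wholly above MDSC and overlapped with each other. CITED held 177 counts against 10 in MDSC, a ratio of 21.95 after scaling (95% counting interval 11.7 to 46.6), and MDSC-NP-Blk held 138, a ratio of 15.0 (7.92 to 32.0). The fitted log2 fold changes were 4.42 (SE 0.483, adjusted p = 1.4e-09) and 3.81 (SE 0.488, adjusted p = 6.3e-08), respectively, and rest on these few counts. CITED against MDSC-NP-Blk gave 0.61 (SE 0.362, adjusted p = 0.26) with a 95% interval from -0.10 to 1.32, wide enough to hold both 0 and the fold threshold of 1, and 1.03 (adjusted p = 0.17) without MDSC-NP-Blk 2 and 3.

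**Figure D2:**
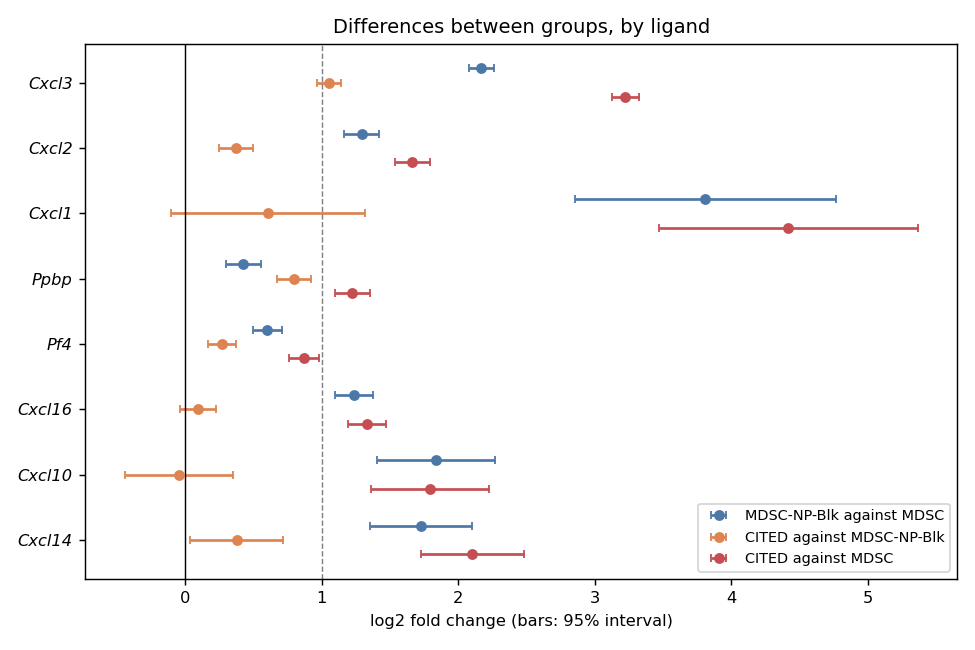
Log2 fold changes (horizontal axis) of 8 CXC ligands in 3 comparisons, with bars for the 95% interval of 1.96 SEs, a solid line at 0, and a dashed line at the threshold of 1. Cxcl3 alone passes the dashed line in CITED against MDSC-NP-Blk (1.05), and the intervals of Cxcl1, Cxcl10, and Cxcl16 in that comparison include 0.

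The ratio of Cxcl3 to Cxcl2 within a library is a description that does not depend on library scaling, although reads from the stretches they share can be split between them. There were 1.35 counts of Cxcl3 for each of Cxcl2 in MDSC (range 1.20 to 1.48, n = 4), 2.49 in MDSC-NP-Blk (2.33 to 2.75), and 3.98 for CITED (3.62 to 4.26). On the log2 scale, with 0.5 counts added, the ratio was 0.44 ± 0.129, 1.31 ± 0.105, and 1.99 ± 0.0981 (SD), and no group overlapped another. Cxcl3 gained on Cxcl2 at each step. Relative to Cxcl1, the log2 ratio of Cxcl3 was 10.39 in MDSC, 8.91 in MDSC-NP-Blk, and 9.35 for CITED, and that of Cxcl2 was 9.96, 7.59, and 7.36, the MDSC values resting on 1 to 3 counts of Cxcl1.

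**Figure D3:**
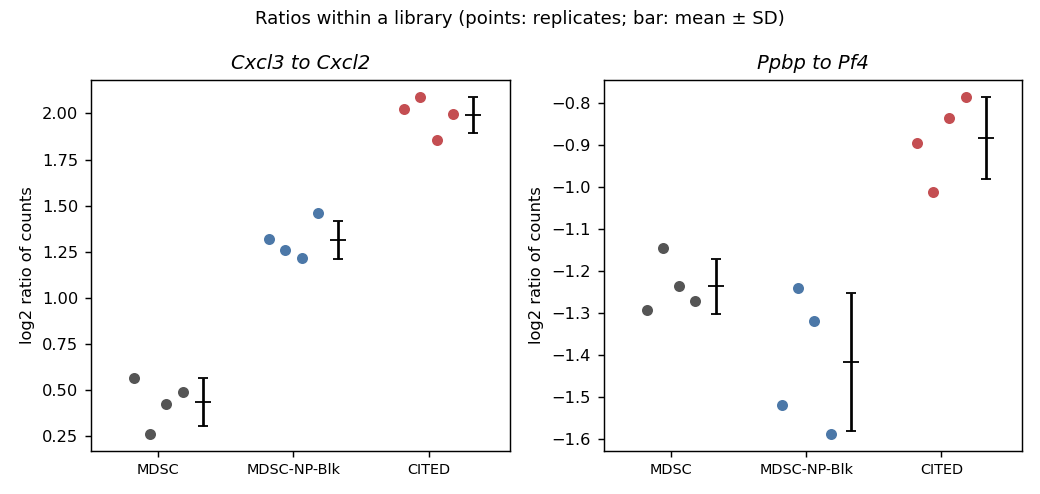
Log2 ratios of counts within a library (vertical axes, which do not start at 0), with points for replicates 1 to 4 and a bar for the mean ± SD. The ratio of Cxcl3 to Cxcl2 rises from 0.44 in MDSC to 1.31 with blank NPs and 1.99 in CITED, whereas that of Ppbp to Pf4 is -1.24, -1.42, and -0.88, with MDSC-NP-Blk overlapping MDSC.

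Ppbp, the precursor of the ELR+ ligand known as NAP-2, had the larger part of its rise between MDSC-NP-Blk and CITED. Normalized counts of Ppbp were 986, 1009, 985, and 957 in MDSC 1 to 4, 1286, 1480.5, 1318, and 1199 in MDSC-NP-Blk 1 to 4, and 2395, 2214.5, 2206, and 2382 in CITED 1 to 4. The groups did not overlap. Ppbp was up-regulated in CITED against MDSC (log2 fold change of 1.22, SE 0.0654, adjusted p = 2.3e-17), and this call is lost with library totals alone (0.95) and with a correction for transcript length (0.99). It was higher by 0.43 in MDSC-NP-Blk against MDSC (SE 0.0657, adjusted p = 1.8e-06) and by 0.80 in CITED against MDSC-NP-Blk (SE 0.0646, adjusted p = 8.5e-12), neither of which reached the fold threshold. The value of 0.43 shrank to 0.20 with the length correction (edgeR adjusted p = 0.0137) and to 0.16 with library totals alone (adjusted p = 0.041).

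Pf4, its neighbour and fellow platelet granule protein, binds heparin and lacks the ELR residues. For Pf4 the normalized counts were 2417.5, 2232.5, 2319, and 2313 in MDSC 1 to 4, 3687.5, 3500, 3288, and 3604 in MDSC-NP-Blk 1 to 4, and 4457, 4468, 3935.5, and 4108.5 in CITED 1 to 4. The groups again did not overlap. Pf4 was higher by 0.87 in CITED against MDSC (SE 0.0545, adjusted p = 1.7e-15), by 0.60 in MDSC-NP-Blk against MDSC (SE 0.0544, adjusted p = 3.6e-11), and by 0.27 in CITED against MDSC-NP-Blk (SE 0.0539, adjusted p = 0.00023), and was called in none of the comparisons because of the fold threshold. In the comparisons with MDSC, Pf4 gave 0.65 (CITED) and 0.41 (MDSC-NP-Blk) with the length correction. With library totals alone these values were 0.60 and 0.34. The ratio of Ppbp to Pf4 counts was 0.424 in MDSC (range 0.408 to 0.452), 0.374 in MDSC-NP-Blk (0.333 to 0.423), and 0.542 for CITED (0.496 to 0.580), so that CITED lay above both other groups.

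As Ppbp and Pf4 are best known from platelets, 12 other genes of platelets and megakaryocytes were set beside them. Their normalized counts summed to between 4225 and 5656 in an MDSC library, 5467 to 7098 in MDSC-NP-Blk, and 4062 to 4394 for CITED, with none of the genes at 0 in a group. In CITED against MDSC, 0 of 12 were called by edgeR (1 was called lower with library totals alone), 0 were higher and 4 were lower by adjusted p alone. In MDSC-NP-Blk against MDSC, Gp1bb, a subunit of the von Willebrand factor receptor, was called higher (1.19, SE 0.186, adjusted p = 2.2e-06), though not with library totals alone or with a correction for transcript length, and 8 were higher by adjusted p alone (4 without MDSC-NP-Blk 2 and 3 or with library totals alone). In CITED against MDSC-NP-Blk 0 were called, and 5 were lower by adjusted p alone (3 without MDSC-NP-Blk 2 and 3, and 8 with the length correction). The summed level had its highest values in MDSC-NP-Blk, whereas both ligands were highest in CITED. Itga2b, the platelet fibrinogen receptor subunit, was among the most abundant of the 12 at 1491 ± 155 in MDSC, 2079.7 ± 176 in MDSC-NP-Blk, and 1292 ± 64.6 for CITED (SD, n = 4). The median log2 fold change of the 12 in CITED against MDSC was -0.02, beside 1.22 and 0.87 for Ppbp and Pf4. With library totals alone it was -0.29, beside 0.95 and 0.60.

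**Figure D4:**
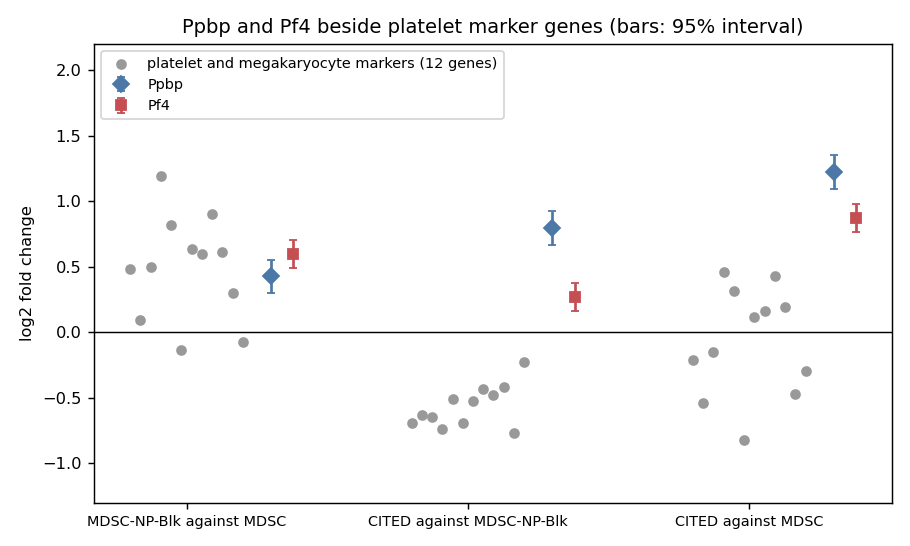
Log2 fold changes (vertical axis) of 12 platelet and megakaryocyte markers (grey points, 1 per gene) beside Ppbp (diamonds) and Pf4 (squares), with 95% intervals, in 3 comparisons. In CITED against MDSC-NP-Blk all 12 markers lie below 0 (5 pass the adjusted p), whereas Ppbp is at 0.80 and Pf4 at 0.27.

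Cxcl16, the membrane-bound ligand, rose with blank NPs and did not differ detectably between the 2 NP groups. Its normalized counts were 495, 486, 479.9, and 499 in MDSC 1 to 4, 1232, 1154, 1142.5, and 1093 in MDSC-NP-Blk 1 to 4, and 1272, 1228, 1217, and 1219.9 in CITED 1 to 4. MDSC lay apart, while MDSC-NP-Blk 1 lay within the range of CITED. Cxcl16 was up-regulated in CITED against MDSC (log2 fold change of 1.33, SE 0.0695, adjusted p = 1.2e-17) and in MDSC-NP-Blk against MDSC (1.24, SE 0.0693, adjusted p = 2.9e-16), the latter reaching only 0.97 with library totals alone. CITED against MDSC-NP-Blk gave 0.10 (SE 0.0666, adjusted p = 0.36), with a 95% interval from -0.04 to 0.23.

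Cxcl10, the interferon-induced ligand of Cxcr3, rose in both NP groups. Cxcl10 had normalized counts of 48.0, 30.4, 50.7, and 53.3 in MDSC 1 to 4, 125, 173, 245, and 108 in MDSC-NP-Blk 1 to 4, and 191, 126, 148, and 169 in CITED 1 to 4. MDSC-NP-Blk varied most (CV 37.8%), with libraries 2 and 3 again the higher ones, and the NP groups overlapped with each other and not with MDSC. The log2 fold change was 1.79 in CITED against MDSC (SE 0.222, adjusted p = 1.9e-08) and 1.84 in MDSC-NP-Blk against MDSC (SE 0.220, adjusted p = 1.6e-08), the latter being 1.33 without MDSC-NP-Blk 2 and 3. CITED against MDSC-NP-Blk gave -0.05 (SE 0.201, adjusted p = 0.94) with a 95% interval from -0.44 to 0.35, and 0.45 without MDSC-NP-Blk 2 and 3 (adjusted p = 0.19). Cxcl9, the second interferon-induced ligand of Cxcr3, had 1 count over the MDSC libraries, 2 in MDSC-NP-Blk, and 0 in CITED, each library being at or under the floor of 3 counts, so that no fold change is given.

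Cxcl14, an ELR-negative ligand expressed mainly in epithelia, was present at a low level. Cxcl14 had normalized counts of 30.7, 38.1, 41.4, and 50.3 in MDSC 1 to 4, 116, 151, 147, and 112 in MDSC-NP-Blk 1 to 4, and 138, 199, 166.5, and 183 in CITED 1 to 4. As for Cxcl1 and Cxcl10, MDSC-NP-Blk 2 and 3 were above MDSC-NP-Blk 1 and 4, and the NP groups overlapped. Cxcl14 was up-regulated in CITED against MDSC (log2 fold change of 2.10, SE 0.191, adjusted p = 1.8e-11) and in MDSC-NP-Blk against MDSC (1.73, SE 0.192, adjusted p = 3.3e-09). CITED against MDSC-NP-Blk gave 0.38 (SE 0.173, adjusted p = 0.13), with a 95% interval from 0.04 to 0.72 for which no adjustment was made, and 0.59 (adjusted p = 0.056) without MDSC-NP-Blk 2 and 3.

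Per kb of transcript, so that genes can be compared, the levels in MDSC were ordered Cxcl3 (3418 normalized counts per kb), Cxcl2 (2318), Pf4 (1554), Ppbp (866), Cxcl16 (164), Cxcl10 (41.4), and Cxcl14 (13.7), with Cxcl1 at or under the floor and given no level. In MDSC-NP-Blk the order of these 7 was the same, from Cxcl3 at 15384 to Cxcl14 at 45.03, followed by Cxcl1 at 34.6. In CITED it was also the same, from Cxcl3 at 31936 per kb through Cxcl2 (7342), Pf4 (2841), and Ppbp (2022) to Cxcl14 at 58.8 ± 8.95 and Cxcl1 at 53.4 ± 16.9 (SD, n = 4). The last 2 did not differ beyond their spread in either NP group, whereas the ranges of other neighbours in the order did not overlap. The members together took 0.0456% ± 0.00100 of the counts of a library in MDSC, 0.108% ± 0.00472 in MDSC-NP-Blk, and 0.185% ± 0.00574 for CITED (SD, n = 4). Within this sum, Cxcl3 went from 35.0% in MDSC to 55.3% with blank NPs and 66.5% in CITED, while Cxcl2 went from 25.9% to 22.3% and 16.7% and Pf4 from 23.4% to 12.5% and 8.70%, although the levels of all 3 rose.

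**Figure D5:**
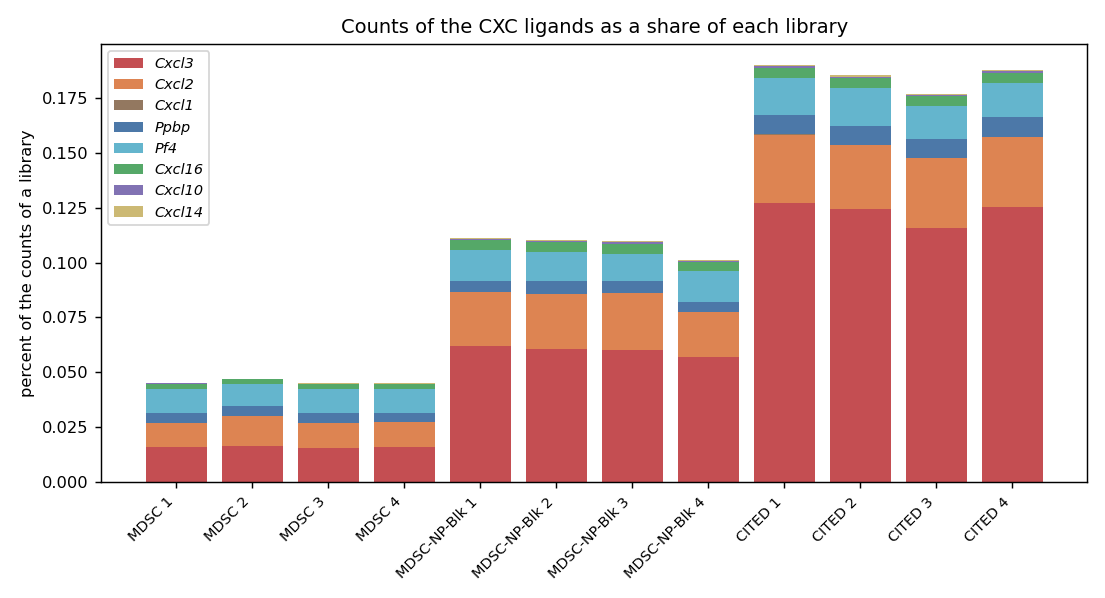
Counts of the CXC ligands as a percent of all counts of a library (vertical axis, from 0), stacked by gene, for the 12 libraries. The total is 0.0456% on average in MDSC, 0.108% in MDSC-NP-Blk, and 0.185% for CITED, and most of the added height is Cxcl3. Cxcl1, Cxcl10, and Cxcl14 are too scarce to be seen clearly.

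Of 6 CXC ligands that were not members, only Cxcl5, an ELR+ ligand next to Ppbp on chromosome 5, was measured above the floor in each NP library. Its normalized counts were 2.36, 6.66, 6.45, and 4.03 in MDSC 1 to 4, 16.6, 35.9, 31.3, and 18.7 in MDSC-NP-Blk 1 to 4, and 103, 74.6, 52.2, and 76.4 in CITED 1 to 4, with no overlap between groups. Cxcl5 was called in CITED against MDSC (log2 fold change of 3.96, SE 0.413, adjusted p = 4.8e-10), in MDSC-NP-Blk against MDSC (2.41, SE 0.426, adjusted p = 1.7e-05), and in CITED against MDSC-NP-Blk (1.55, SE 0.342, adjusted p = 0.00078). The values against MDSC rest on 21 counts in MDSC, 3 to 7 in a library, with 1 library at the floor. The scaled ratio of counts was 15.9 in CITED (95% counting interval 10.2 to 26.1) and 5.75 in MDSC-NP-Blk (3.58 to 9.65). Cxcl12, Cxcl13, Cxcl15, and Cxcl17 had 0 counts in the 12 libraries, and Cxcl11 had 2 counts or fewer in each. Genes that flank the ligand cluster, such as Rassf6 (0.35, adjusted p = 0.49) and Mthfd2l (0.72, adjusted p = 0.0043), were not called in CITED against MDSC.

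Of 9 receptors and atypical receptors of CXC ligands, 1 was called higher in CITED against MDSC, 3 in MDSC-NP-Blk against MDSC, and 0 in CITED against MDSC-NP-Blk, with 0 called lower in each and 1, Cxcr4, lower by adjusted p alone in the last. Ackr3, a scavenging receptor, had 26.9 ± 8.32 normalized counts in MDSC, 85.7 ± 23.8 in MDSC-NP-Blk, and 73.8 ± 3.64 for CITED, and was called in both comparisons with MDSC (1.45, adjusted p = 1.8e-05, in CITED and 1.66, adjusted p = 2.6e-06, in MDSC-NP-Blk). Cxcr2, the receptor of the ELR+ ligands, was the most abundant receptor, at 8079 ± 379, 13548 ± 302, and 14039 ± 469 (SD, n = 4). It was higher by 0.80 in CITED against MDSC (SE 0.0460, adjusted p = 1.8e-16) and by 0.75 in MDSC-NP-Blk against MDSC (SE 0.0460, adjusted p = 2.9e-15), both below the fold threshold, and gave 0.05 in CITED against MDSC-NP-Blk (adjusted p = 0.48). With library totals alone, with the length correction, or without MDSC-NP-Blk 2 and 3, 2 receptors were called in MDSC-NP-Blk against MDSC. Cxcr1 was called in MDSC-NP-Blk against MDSC (1.35, adjusted p = 0.002), and gave 0.91 in CITED against MDSC (adjusted p = 0.036) and -0.44 in CITED against MDSC-NP-Blk (adjusted p = 0.41). Cxcr3, the receptor of Cxcl9 and Cxcl10, was also called there on 11 counts against 0 and no fold change is given. Cxcr6, the receptor of Cxcl16, had 11 counts in MDSC and 16 in MDSC-NP-Blk.

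Proteases that cut CXC ligands moved in both directions. In CITED against MDSC, 2 of 8 were called higher and 3 lower, in MDSC-NP-Blk against MDSC 0 and 1, and in CITED against MDSC-NP-Blk 0 and 3. Mmp8 and Mmp9, secreted metalloproteinases of neutrophil granules, rose in CITED against MDSC by 1.46 (SE 0.0389, adjusted p = 2.4e-25) and 1.23 (SE 0.0502, adjusted p = 2e-20), and only 1 of the 2 stayed called with library totals alone. The serine proteases of azurophil granules fell in CITED. Elane, neutrophil elastase, had 15079.5 ± 975 normalized counts in MDSC, 10902.5 ± 196 in MDSC-NP-Blk, and 1561 ± 102 for CITED, a log2 fold change of -3.27 in CITED against MDSC (SE 0.0562, adjusted p = 5.2e-31) and -2.81 in CITED against MDSC-NP-Blk (adjusted p = 1.7e-28). Ctsg, cathepsin G, was called lower in all 3 comparisons (-2.70 in CITED against MDSC, adjusted p = 1.1e-26), and Prtn3, proteinase 3, in both comparisons of CITED (-2.17 and -1.75). Adam10 and Adam17, sheddases of Cxcl16, were not called.

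Of 8 genes that act on the stability of short-lived inflammatory mRNAs, 2 were called higher in each comparison with MDSC and 0 in CITED against MDSC-NP-Blk, and 0 were called lower. They were Zfp36, tristetraprolin, whose protein promotes decay of AU-rich mRNAs (2541 ± 162 normalized counts in MDSC, 6538.5 ± 542 in MDSC-NP-Blk, and 7115 ± 457 for CITED), and its relative Zfp36l1 (6593 ± 239, 17493 ± 482, and 19221 ± 1284). The log2 fold changes in CITED against MDSC were 1.49 (SE 0.0599, adjusted p = 1.4e-20) and 1.54 (SE 0.0490, adjusted p = 2.9e-23). Both kept their calls with library totals alone. In MDSC-NP-Blk against MDSC they were 1.36 and 1.41.

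Of 11 NF-kB subunits and regulators, 5 were called higher in CITED against MDSC and 2 in MDSC-NP-Blk against MDSC, and 10 were higher by adjusted p alone in each, whereas 0 were called in CITED against MDSC-NP-Blk and 3 were higher by adjusted p alone. Bcl3, an atypical IkB protein, rose by 1.44 (SE 0.0778, adjusted p = 3.5e-17) and Relb by 1.23 (SE 0.0738, adjusted p = 4.9e-16) in CITED against MDSC, and by 1.14 and 1.12 in MDSC-NP-Blk against MDSC. Nfkb2, Nfkbib, and Rela were called in CITED against MDSC (1.11, 1.14, and 1.10) and gave 0.98, 0.72, and 0.93 in MDSC-NP-Blk against MDSC, below the fold threshold. With library totals alone, the numbers called were 1 and 0 in the comparisons with MDSC, and with the length correction they were 5 and 4. Nfkbia, a target and inhibitor of the pathway, had 6022.5 ± 292, 11608.5 ± 407, and 11765 ± 223 normalized counts in the 3 groups, 0.97 higher in CITED against MDSC, which did not reach the fold threshold.

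For the interferon pathway, which induces Cxcl9 and Cxcl10, 13 of 15 genes could be tested, Ifng and Ifnb1 having 0 counts in the 12 libraries. In CITED against MDSC, 2 were called higher, and 9 were higher and 1 lower by adjusted p alone. The 2 were Irf7 (289, 485, and 750.0 normalized counts in the 3 groups), with a log2 fold change of 1.38 (SE 0.0858, adjusted p = 1.5e-15), and Irf9 (1.02, SE 0.0727, adjusted p = 4.2e-14), both of which encode interferon-responsive transcription factors. With library totals alone 1 stayed called. In both other comparisons 0 of 13 were called by edgeR, and 10 and 6, respectively, were higher and 1 and 0 lower by adjusted p alone. With library totals alone, 6 were higher and 3 lower by adjusted p in MDSC-NP-Blk against MDSC, and 9 and 4 in CITED against MDSC.

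The genes whose levels followed each ligand most closely over the 12 libraries are given as a description, by Pearson's r of log2 CPM over 10556 genes. The libraries fall into 3 groups, and r over all of them does not separate variation between groups from that within groups. Cxcl3 was followed by Fth1 (ferritin heavy chain, r = 0.999), Sqstm1 (the autophagy receptor p62, r = 0.998), and Rnf149 (r = 0.998). Cxcl16 was followed by Cd14 (a lipopolysaccharide coreceptor, r = 0.997), Actg1, and Eif3f, and Cxcl2 by Lsp1 (r = 0.997), Lyn, and Ppp1r18. For Cxcl10 these genes were Olr1 (r = 0.968), Clec4e, and Myd88, and for Cxcl14 they were Ccdc88b (r = 0.989), Lpar6, and Man2b1. Pf4 had Npc2 (r = 0.994), F10, and Aamp, Ppbp had Fam20c (r = 0.990), Slc15a3, and Dusp3, and Cxcl1 had Rin2 (r = 0.992), Lpcat2, and Klf6. Among the 8 ligands other than Cxcl9 themselves, r ran from 0.727 for Ppbp and Cxcl10 to 0.987 for Pf4 and Cxcl3. Each r of Cxcl1, also that with Rin2, includes 4 MDSC libraries in which Cxcl1 was at or under the floor. Fth1 had 144171 normalized counts in MDSC, 349681 in MDSC-NP-Blk, and 540311 for CITED, in the same order as Cxcl3.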

How the data were processed

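Per the labels and the methods of the study, poly(A) RNA of 12 libraries was sequenced and quantified with Salmon 1.4.0 against GENCODE transcripts of GRCm39 and tximport in R 4.3.2. The authors deposited raw counts (whole numbers) for each symbol, with no normalization or filter. All 12 columns of counts were assigned to groups by title, and 1 row without a symbol was left out.

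Symbols whose counts reached 2 over all 12 libraries entered the test in edgeR 4.0.16 in R 4.3.3 (TMM, glmQLFit and glmQLFTest, group as the only term, robust off, 3 comparisons), with Benjamini-Hochberg adjustment. Alternatives were DESeq2 1.42.0, other scalings and filters, a replicate block, a length correction (loess, span 0.5), and leaving out each library. Leaving out MDSC-NP-Blk 2 and 3 together was chosen after seeing the data. The other pair of that group was not left out together, so that these values show a shift in a single direction only. Lengths are those of canonical GENCODE mouse transcripts, whose release may differ from the authors'. The procedure was tested on simulated data. The members and gene lists were chosen with earlier results of these data known. The text names all members, the genes of each list called in a comparison (of longer ones a part), and the 3 genes most like a member, and some genes of the lists are not reported here. Nfkbia, Cxcr2, Cxcr4, Cxcr6, Itga2b, Adam10, Adam17, Rassf6, Mthfd2l, and markers of MDSCs are named besides, chosen after their values were seen. Intervals cover counting error or 1.96 SEs. Figures used Python 3.11.15 and matplotlib 3.10.9.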

Additional observations from a re-analysis of the deposited data

Results flagged for a closer look

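Groups of 4 libraries were screened for a library far from the others in the normalized count of each ligand, and 1 of 23 groups was found, near the 1 in 20 that chance gives. It was Cxcl2 in MDSC 2, at 2994.7 normalized counts, whose distance to the nearest of the other MDSC libraries made up 0.855 of the range of the group (above Dixon's 95% limit for 4 values). The library remained below each MDSC-NP-Blk and CITED library. Without it, the log2 fold change of Cxcl2 in CITED against MDSC was 1.74, as against 1.66 with it.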

How the results depend on the processing

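Of 544 alternative fold changes of members other than Cxcl9, 538 kept their direction and side of the thresholds. Some of these settings could hardly move a fold change, such as leaving out a library of the group not compared. With the length correction, the median log2 fold change of the members was 1.43 in CITED against MDSC and 1.21 in MDSC-NP-Blk against MDSC. Without it, these medians were 1.66 and 1.29. With library totals alone, 272 genes were called higher and 1890 lower in CITED against MDSC (580 and 1185 with TMM), and 146 and 1060 in MDSC-NP-Blk against MDSC (333 and 505). The share of calls that were higher went from 32.9% to 12.6% and from 39.7% to 12.1%, and the median of all genes from -0.05 to -0.32 and from -0.03 to -0.29. Which of the 2 scalings holds cannot be told from these counts. Relative to the median of all genes the members lay as with TMM. With library totals alone, Ppbp in CITED against MDSC (0.95, and 0.99 with the length correction) and Cxcl16 in MDSC-NP-Blk against MDSC (0.97) fell just short of the fold threshold. Cxcl10 in CITED against MDSC-NP-Blk ranged from -0.19 to 0.21 when single libraries were left out, turning to 0.21 without MDSC-NP-Blk 3 and 0.05 without CITED 2, and was 0.45 without MDSC-NP-Blk 2 and 3, never passing the threshold. With TMM factors in the totals, members took 0.0403%, 0.115%, and 0.198% of counts in MDSC, MDSC-NP-Blk, and CITED. With 3 counts added, the log2 ratio in MDSC was 9.46 for Cxcl3 to Cxcl1 and 9.02 for Cxcl2 to Cxcl1.

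With a replicate block, 535 genes were called higher and 1086 lower in CITED against MDSC, 310 and 456 in MDSC-NP-Blk against MDSC, and 102 and 339 in CITED against MDSC-NP-Blk (115 and 354 without it), and the members called numbered 7, 6, and 1, as without it. Deviations of same-numbered libraries correlated at -0.0558 to 0.140 over 10556 genes, so the libraries were taken to share only a number. Depth limits Cxcl9, and Cxcl1 in MDSC.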

Other observations

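Markers of other cell types were examined beside the ligands. Mast cell and basophil markers summed to between 11357 and 12302 normalized counts in MDSC, 12886 and 14260 with blank NPs, and 7254.5 and 7714 in CITED, with none at 0. Ms4a2, a subunit of the IgE receptor, was called lower in CITED against MDSC (-1.14, SE 0.130, adjusted p = 3.4e-09), where 3 of 6 were called lower with library totals alone or with a correction for transcript length and 2 without MDSC-NP-Blk 2 and 3. Prss34, a basophil and mast cell protease, was called lower in CITED against MDSC-NP-Blk (-1.06, SE 0.0498, adjusted p = 1e-17), as was Fcer1a (-1.16). By adjusted p alone, 5 and 6 of the 6 markers were lower in these comparisons. The sums moved against Cxcl3, Ppbp, and Pf4 from MDSC-NP-Blk to CITED, and their part in the ligand values was not tested.

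T and B cell markers summed to between 119 and 180 in MDSC, 84.4 and 147 with blank NPs, and 65.8 and 84.4 in CITED, with Cd79a and Ms4a1 among those called lower in CITED against MDSC, and Cd79a also in CITED against MDSC-NP-Blk, a call lost without MDSC-NP-Blk 2 and 3. Erythroid markers summed to between 62.9 and 111 over all libraries, with 1 of 6, Hbb-bs, called lower in MDSC-NP-Blk against MDSC (-1.26, adjusted p = 0.013), against a median of 0.72 over the 6. Without those libraries 0 of 5 tested were called lower and 1 was called higher. Of 6 dendritic cell markers, Clec9a was called higher (1.29, adjusted p = 5.9e-06) and Siglech lower in CITED against MDSC. Stromal and endothelial markers had no call by edgeR with TMM in 6 genes tested (1 lower in MDSC-NP-Blk against MDSC with library totals alone), Pecam1 being lower by 0.69 in CITED against MDSC (SE 0.0668, adjusted p = 9.3e-11) and Col1a1 at 49.8 normalized counts in MDSC.

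Of 10 MDSC markers, Csf3r, the G-CSF receptor, was called higher in CITED against MDSC (1.54, SE 0.0550, adjusted p = 6.4e-22) and in MDSC-NP-Blk against MDSC (1.34), while Nos2, which encodes inducible nitric oxide synthase, had 3610 ± 269 normalized counts in MDSC, 2413 ± 1081 with blank NPs, and 414 ± 56.0 in CITED, and was called lower there (-3.12 in CITED against MDSC, SE 0.176, adjusted p = 1e-16). Ly6c1 was called lower in both comparisons of CITED.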
